A study of Komagataella phaffii with 102 samples.

Results

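GQ67_05214 is a protein-coding gene of the yeast Komagataella phaffii, and it is 1 of the 5116 genes with values in the deposited tables. It was chosen by its measured expression, because among 5087 genes fitted over all libraries it had the largest mean increase in methanol over both glycerol conditions. Those increases are given as a description without a test. In the authors' assembly of strain Y-11430, the gene lies on chromosome 4 from 1583138 to 1585129 on the minus strand. It is a single exon of 1992 bases including the stop codon, which encodes 663 amino acids. The gene model has no untranslated regions, so this is a coding length.

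K. phaffii is a methylotrophic yeast, which means that it can grow with methanol as its carbon source. In such yeasts methanol is first oxidised inside peroxisomes, and the product is either assimilated into sugar phosphates or oxidised further to carbon dioxide. The genes for these enzymes are known to be held low during growth on glycerol and to become some of the most abundant transcripts in methanol, and their promoters are widely used to make recombinant proteins. Neither the deposited annotation nor the RefSeq gene table used here names GQ67_05214 or its product, so no role is stated for it. Its sequence was not analysed here, and whether it shares reads with similar genes was not tested.

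The libraries came from 11 strains without transgenes, grown in small plate cultures. All cultures first grew for 24 h in glycerol. They were collected then (24 h glycerol, 36 libraries), after transfer to fresh glycerol and a total of 48 h (48 h glycerol, 28 libraries), or after transfer to methanol for 24 h (methanol, 38 libraries). The strains were Y-11430, Y-12729, Y-48123, Y-48124, GS115, X-33, Y-7556, YB-4290, YB-4289, YB-378 and Y-17741. GS115 is a histidine auxotroph derived from Y-11430 by mutagenesis, and Y-48124 and X-33 carry nearly all of its mutations. Y-7556 and YB-4290 have identical genomes. These strains, YB-378, YB-4289 and Y-17741 carry a longer form of the transcription factor Rsf2p than the remaining strains. According to the study, YB-4289, YB-378 and Y-17741 differ from Y-11430 at far more genome positions than the other strains do. Whether this affected the reads counted for the gene was not tested. The study placed Y-7556, YB-4290, YB-4289 and YB-378 in a group named Cluster 2 and used Y-12729, Y-48123 and Y-48124 as reference strains. It formed these groups from the expression in these same libraries, so a difference between them in 1 gene is not independent evidence of the grouping. Most groups of strain and condition held 3 libraries, with a range of 1 to 7.

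Library totals, summed over the 5116 genes with values, ranged from 2178289 to 6551295 counts at 24 h glycerol. They ranged from 425037 to 16336681 at 48 h glycerol and from 70901 to 5527511 in methanol. In 6 libraries the total was under 1000000 counts, and the smallest, X-33 methanol replicate C with 70901 counts, decided several values below. No pair of libraries had identical counts. Nothing in the labels says that replicates were separate cultures, so p-values measure the spread between libraries, which may in part be technical.

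At 24 h glycerol, the gene was weakly expressed in every strain. Its level, in counts per 1000000 counts of the library (CPM), was 29.6 ± 14.0 (SD, n = 36), with a lowest value of 13.8, a median of 26.5 and a highest value of 63.8. It ranked between position 2448 and position 4486 of the 5116 genes by CPM. The lowest level, in Y-48124 replicate B, rested on 53 counts, and its Wilson 95% interval of 10.6 to 18.1 CPM covers counting error only.

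Y-11430 stood highest at 24 h glycerol. Its 6 libraries ran from 45.3 through a median of 54.6 to 61.5 CPM. In all other strains together, the only library in that range or above it was X-33 replicate C at 63.8 CPM, while X-33 replicates A and B had 15.0 and 15.3 CPM. Y-12729 gave 28.1, 27.5 and 28.5 CPM in replicates A to C, Y-48123 gave 26.2, 26.6 and 22.9 CPM, and Y-48124 gave 27.7, 13.8 and 38.3 CPM. GS115 gave 31.8, 29.4 and 22.3 CPM, and Y-17741 gave 28.1, 33.16 and 26.4 CPM. The 12 Cluster 2 libraries lay between 14.7 and 27.7 CPM with a median of 20.3 CPM. They overlapped with the reference strains, whose 9 libraries lay between 13.8 and 38.3 CPM.

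At 48 h glycerol the level was higher and far more uneven, at 154 ± 134 CPM (SD, n = 28), with a lowest value of 39.3, a median of 107 and a highest value of 713. Of these 28 libraries, 24 lay above the highest library of 24 h glycerol. Y-12729 covered most of the range, with 56.0 CPM in replicate A, 295 CPM in replicate B and 713 CPM in replicate D. Y-17741 gave 39.3 and 335 CPM, and Y-48124 gave 65.2, 285 and 195 CPM. The libraries of Y-11430 were close together by comparison, with 161, 147 and 162 CPM.

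The remaining strains at 48 h glycerol lay mostly near or below the median of all strains. X-33 gave 167, 128 and 119 CPM, Y-48123 gave 154 CPM in its only library, and GS115 gave 77.3 and 89.7 CPM. YB-4290 gave 81.7, 94.5 and 253 CPM, although Y-7556, with the same genome, gave 95.6 and 92.3 CPM. YB-378 gave 85.7, 84.1 and 142 CPM, and YB-4289 was lowest with 79.7, 62.4 and 56.7 CPM. The order of strains had overlapping ranges at every step but 1, between Y-7556 and GS115.

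In methanol, GQ67_05214 was among the most abundant of the 5116 listed genes. Its level was 33218 ± 25955 CPM (SD, n = 38), with a lowest value of 2832, a median of 35443 and a highest value of 95517. Every methanol library lay above every glycerol library, and the lowest methanol library exceeded the highest glycerol library 3.97 times. Of 4915 genes with a mean above 5 CPM, 27 (0.549%) separated the conditions in this way. That count is given as background only, since the gene was chosen for this contrast. The plot of all libraries shows this gap in each strain.

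**Figure D1:**
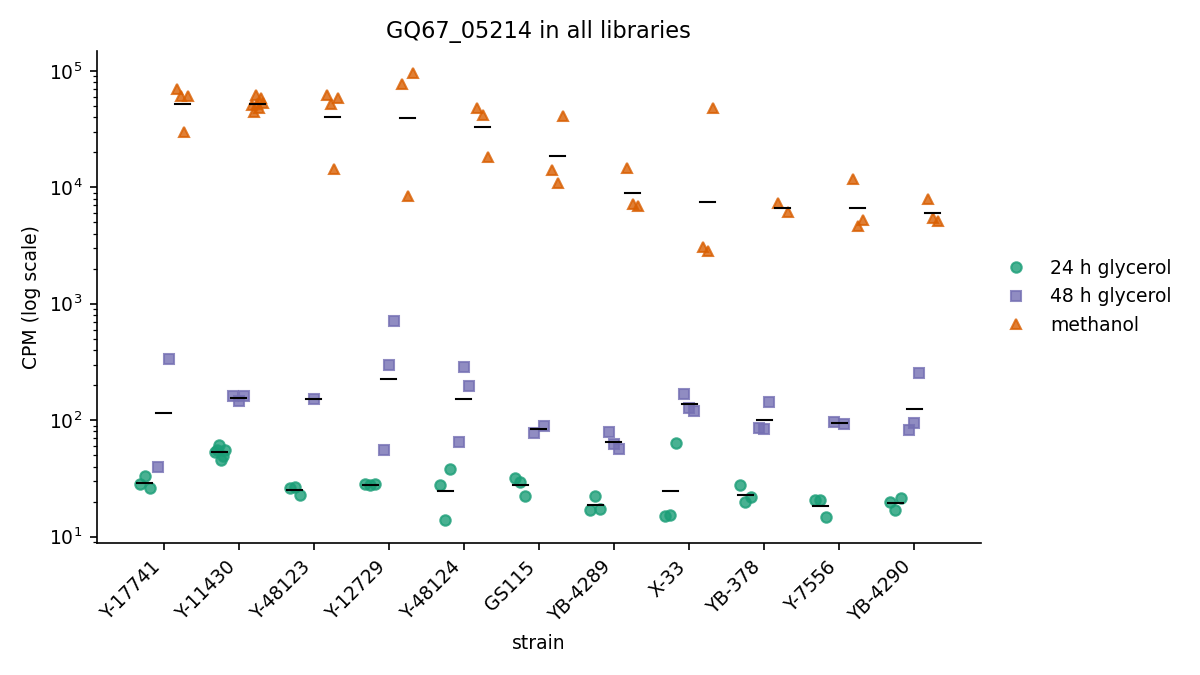
Level of GQ67_05214 in CPM on a log axis in all libraries, by strain and condition. Points are libraries and black bars are geometric means. Strains run from the highest to the lowest mean log2 level in methanol. No methanol library, of which the lowest is at 2832 CPM, reaches down to the glycerol libraries, of which the highest is at 713 CPM.

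In methanol some strains were uniformly high, others uniformly low, and several held both high and low libraries. Y-11430 was high and even, its 7 libraries running from 43858 through a median of 51834 to 61668 CPM. Y-17741 gave 69490, 60150, 29599 and 60233 CPM, and its lowest library still lay above the highest Cluster 2 library. The 11 Cluster 2 libraries lay between 4639 and 14617 CPM. Within Cluster 2, Y-7556 gave 11753, 4639 and 5269 CPM, YB-4290 gave 7936, 5444 and 5134 CPM, YB-4289 gave 14617, 7114 and 6871 CPM, and YB-378 gave 7271 and 6102 CPM.

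Each reference strain had 1 low library in methanol. Y-12729 gave 76337 CPM in replicate A and 95517 CPM in replicate C but 8489 CPM in replicate B. Y-48123 gave 61494, 51560 and 58044 CPM in replicates A, B and D but 14250 CPM in replicate C. Y-48124 gave 47501 and 41749 CPM in replicates A and B but 18334 CPM in replicate C. GS115 was split the opposite way, with 14109 and 10905 CPM in replicates A and B and 41286 CPM in replicate C. The widest split was in X-33, with 3066 and 2832 CPM in replicates A and B, the lowest libraries of the condition, and 48335 CPM in replicate C. Of these low libraries, Y-12729 replicate B, Y-48123 replicate C and GS115 replicates A and B lay inside the Cluster 2 range, those of X-33 lay below it and that of Y-48124 lay above it.

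Methanol libraries were more than 2 times apart in 8 strains. In 4 of these, the share of TPM (transcripts per 1000000) outside the listed genes was higher in the low libraries than in the others. It was 46.2% against 22.7% to 40.5% in Y-48123, 39.1% against 19.0% and 35.9% in Y-48124, 43.7% and 41.7% against 37.3% in X-33, and 41.1% against 38.8% to 40.8% in Y-17741, whose lowest library was replicate C. It was lower in the low libraries of Y-12729 (26.0% against 28.03% and 40.0%) and GS115 (16.8% and 19.7% against 21.5%). The same held for replicates B and C against A in Y-7556 (16.2% and 18.6% against 19.5%) and YB-4289 (14.9% and 27.0% against 32.8%). Over the 38 methanol libraries this share and the log2 level had a Pearson r of 0.20, and the log10 library total and the log2 level had one of -0.02. At 24 h glycerol the share outside the listed genes had an r of 0.61 with the log2 level over 36 libraries, and the log10 library total one of -0.37. Over the 28 libraries of 48 h glycerol these were -0.35 and -0.40. Their part in the results was not tested. These correlations are descriptions of libraries that share strains.

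GQ67_05214 took 0.283% to 9.55% of the counts of the listed genes in a methanol library, with a median of 3.54%. At 24 h glycerol its highest share was 0.00638%, and at 48 h glycerol 0.0713%. What fell outside the listed genes is not in these totals. Of all TPM, which include that part and allow for gene length, the gene took 0.121% (X-33 replicate B) to 4.87% (Y-12729 replicate C) in methanol. By CPM it was the first of 5116 genes in 17 of the 38 methanol libraries, it was among the first 10 in 26, and its lowest position was 60, in X-33 replicate B. By TPM, which allows for gene length, it was first in 11. The 7 Y-11430 libraries and the 4 Y-17741 libraries all had it in first place by CPM.

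**Figure D2:**
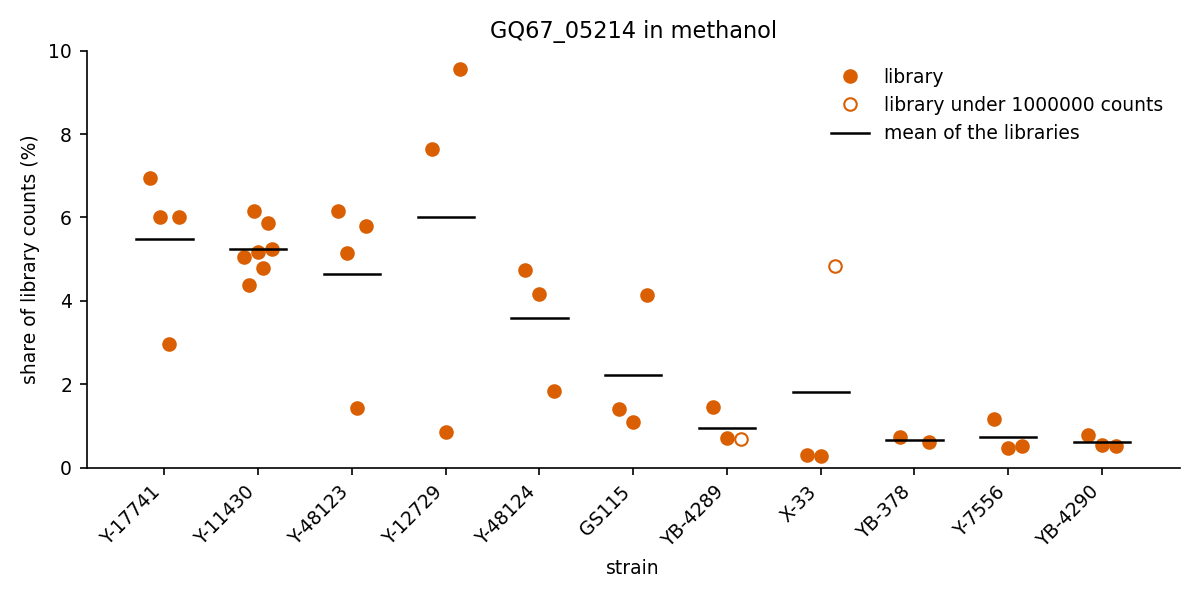
Share of the counts of the listed genes taken by GQ67_05214 in the 38 methanol libraries, in percent, by strain. Filled points are libraries, open points are libraries under 1000000 counts and bars are means. Shares reach 9.55% in Y-12729 and stay at or below 1.46% in the 4 Cluster 2 strains.

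Fold changes over glycerol were estimated per strain with edgeR, which models counts with a mean per strain and condition. As the mean of 10 strains (Y-48123, with its single library at 48 h glycerol, was left out), methanol exceeded 48 h glycerol by 7.37 on the log2 scale (SE 0.30), a 165-fold difference. Averaged over 11 strains, methanol exceeded 24 h glycerol by 9.94 (SE 0.28), or 985-fold. The median over all 5087 genes was 0.03 and 0.04 in these contrasts, and the gene next in size reached 6.90 in the first and 8.08 in the second. The increase from 24 h to 48 h glycerol was 2.46 on the log2 scale (SE 0.21), or 5.52-fold. For that contrast the largest change of any gene was 6.60, so the gene was not at the top.

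Every strain shared the direction of all 3 fold changes. Over 48 h glycerol the estimate ranged from 5.78 in YB-4290 (SE 0.77, 55.1-fold) to 8.65 in Y-17741 (SE 1.05, 402.1-fold), with Y-11430 at 8.58 (SE 0.86, 382-fold). With strain and replicate letter together as a block, X-33 at 5.79 lay below YB-4290 at 5.91. Over 24 h glycerol it ranged from 8.34 in YB-378 (SE 0.88, 324-fold) to 11.66 in Y-12729 (SE 0.98, 3230-fold), but neither end held under every method. With limma on log2(TPM + 1), Y-12729 was at 10.16, below Y-17741 at 10.61, and X-33 was at 7.72, below YB-378 at 8.24. Between the glycerol conditions it ranged from 1.62 in Y-11430 (SE 0.54) to 3.93 in Y-12729 (SE 0.71). With limma these were 1.70 and 2.85, and GS115 was lowest at 1.52. The standard errors were wide, and most neighbouring strains lay within 1 SE of each other.

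**Figure D3:**
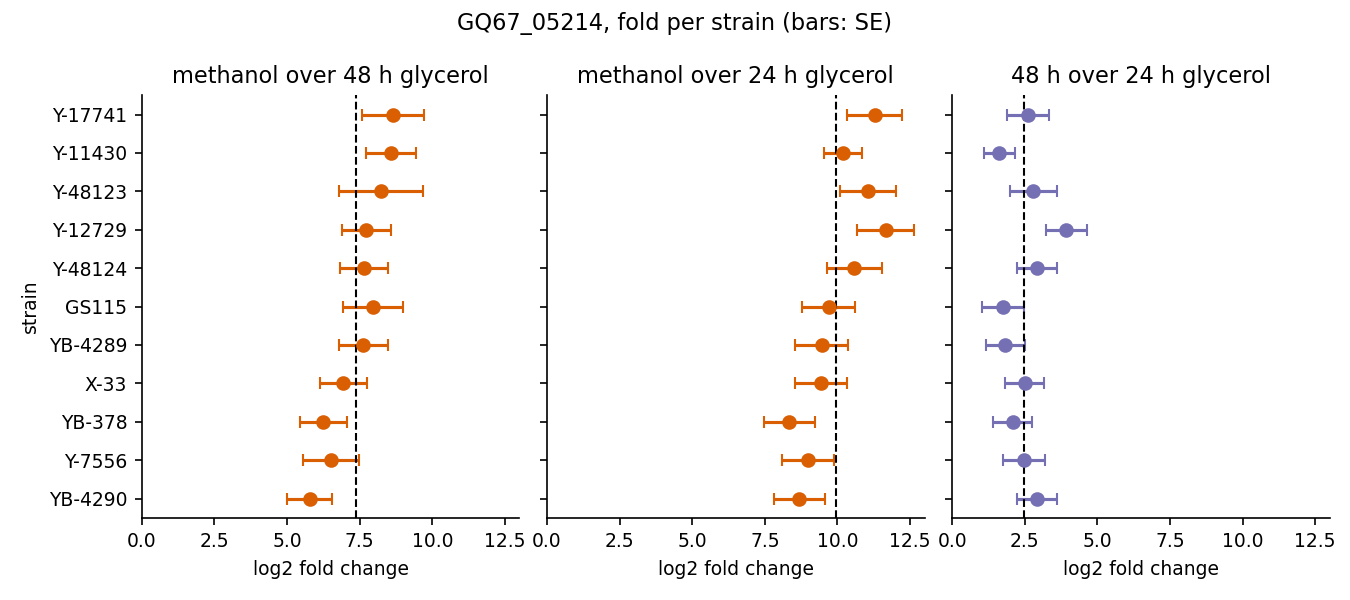
Log2 fold changes of GQ67_05214 per strain, from the edgeR model over all libraries. Points are estimates, bars are standard errors, and dashed lines are means over strains (7.37, 9.94 and 2.46). Every estimate lies above 0.

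Single libraries moved some of these estimates. Without the libraries under 1000000 counts, methanol over 48 h glycerol was 4.80 in X-33 rather than 6.94, and its value over 24 h glycerol was 7.30 rather than 9.43. Methanol over 48 h glycerol was then 10.70 in Y-17741 rather than 8.65, and 8.70 in Y-12729 rather than 7.73. The difference between the glycerol conditions in Y-12729 was then 2.95 rather than 3.93. Y-17741 then had 1 library at 48 h glycerol, and its difference between 48 h and 24 h glycerol was 0.58 rather than 2.63.

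Whether strains differed within a condition was tested with the edgeR quasi-likelihood F test, with p-values adjusted over all genes. These tests measure strains against the spread of libraries within strains, so in a contrast of strain groups the differences between strains of a group do not enter. In methanol the strains differed (adjusted p = 2.78e-04, edgeR), as did 85.8% of the 5045 genes tested. At 24 h glycerol they also differed (adjusted p = 6.04e-04, edgeR), beside 92.5% of 5018 genes. At 48 h glycerol a difference was not called (adjusted p = 0.137, edgeR), although 67.5% of 5046 genes passed. The call at 48 h glycerol appeared without Y-12729 replicate A (adjusted p = 0.0150, edgeR) or without Y-17741 replicate D (adjusted p = 0.0408, edgeR).

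Ordered by mean log2 level in methanol, the strains ran Y-17741, Y-11430, Y-48123, Y-12729, Y-48124, GS115, YB-4289, X-33, YB-378, Y-7556 and YB-4290. The order was not firm. Y-17741 and Y-11430 both had a mean of 15.67, Y-12729 had the highest mean CPM (60114), and the model used for the tests put Y-12729 above Y-48123 by 0.66 and above Y-17741 by 0.27. No strain differed from its neighbour in this order, with adjusted p-values between 0.291 and 0.864 (edgeR, adjusted over all genes and 55 pairs), and the ranges of all neighbours overlapped. A call between strains required an adjusted p under 0.05 and a difference of at least 1 on the log2 scale. Of the 55 pairs, 18 (32.7%) were called for this gene, where 17.5% of all tests over genes and pairs were. Of the 18, 17 set a Cluster 2 strain against another strain, out of 28 such pairs. Over all genes, 22.7% of the tests in these 28 pairs were called. Among the 6 pairs within Cluster 2 none was called, the smallest adjusted p being 0.555 (edgeR), and few genes were, at 1.69% of tests.

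Y-17741, Y-11430, Y-12729 and Y-48123 each exceeded all 4 Cluster 2 strains in methanol. The differences of Y-17741 ran from 2.37 to 3.13 on the log2 scale with adjusted p-values of 0.00388 to 0.0200 (edgeR), and those of Y-48123 reached 0.0493 (edgeR). Y-48124 exceeded 1 of the 4, YB-4290, and for GS115 and X-33 no pair with a Cluster 2 strain was called. Over all genes, 19.3% of the tests in the pairs of Y-48124 with Cluster 2 were called, 35.2% in those of GS115 and 5.33% in those of X-33. The only called pair outside Cluster 2 was Y-12729 over X-33, at 2.07 (SE 0.78, adjusted p = 0.0479, edgeR), which is 1 of 21 pairs or 4.76%, where 15.1% of tests over all genes were called. The number of called pairs was 26 without X-33 replicate C, 12 without either YB-378 library and 14 with the replicate letter as a block.

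Against the mean of the reference strains, Cluster 2 was lower in methanol by a log2 difference of -2.54 (SE 0.43, adjusted p = 8.28e-06, edgeR). The group means were 7468 ± 3073 CPM (SD, n = 11) and 47327 ± 27832 CPM (SD, n = 10), and in this comparison 22.2% of the genes tested were called, with 13% lower and 9.18% higher. The difference kept its call with every library left out in turn, between -2.71 and -2.32. At 48 h glycerol Cluster 2 was also lower, by -1.25 (SE 0.42, adjusted p = 0.0282, edgeR), where 4.56% of genes were called and 3.15% were lower. That call was lost when any 1 of 4 libraries was left out (Y-12729 replicate D, Y-48124 replicate B, Y-7556 replicate A or Y-7556 replicate C), and the estimate was -0.93 (adjusted p = 0.0816, edgeR) without Y-12729 replicate D. With the replicate letter as a block it was -0.88 (adjusted p = 0.166, edgeR). At 24 h glycerol the difference was -0.40 (SE 0.20, adjusted p = 0.0984, edgeR), which was not called, where 7.43% of genes were.

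Y-11430 exceeded the reference strains at 24 h glycerol by 1.05 (SE 0.23, adjusted p = 2.14e-04, edgeR), beside 15.5% of genes called and 9.37% called higher. The size lay just over the minimum of 1. It was 0.98 without Y-11430 replicate C and 0.91 without Y-48124 replicate B, which ended the call although the adjusted p stayed at or under 0.00102 (edgeR). In methanol, Y-11430 and the reference strains differed by 0.11 (SE 0.46, adjusted p = 0.938, edgeR), an estimate too wide to show that they were equal, and 0.377% of genes were called. They differed at 48 h glycerol by -0.54 (SE 0.62, adjusted p = 0.953, edgeR), where 0.0198% of genes were called.

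GS115 differed from the reference strains in methanol by -1.24 (SE 0.66, adjusted p = 0.1504, edgeR), which was not called, where 15% of genes were. Without its high replicate C it was called, at -2.24 (adjusted p = 0.0308, edgeR). X-33 differed from them by -1.49 (SE 0.67, adjusted p = 0.0871, edgeR), also not called, where 15.6% of genes were. Without its replicate C, the library of 70901 counts, the difference was -3.64 (adjusted p = 6.85e-04, edgeR). Without Y-12729 replicate B it was -1.66 (adjusted p = 0.0318, edgeR). Y-17741 lay at 0.31 (SE 0.54, adjusted p = 0.645, edgeR) in methanol, where 25.5% of genes were called, with estimates of -0.52 (SE 0.73, adjusted p = 0.611, edgeR; 16.2% of genes called) at 48 h glycerol and 0.17 (SE 0.30, adjusted p = 0.699, edgeR; 6.74% called) at 24 h glycerol.

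The glycerol estimates of the histidine auxotroph and of X-33 were also not called. GS115 differed from the reference strains by -1.24 (SE 0.76, adjusted p = 0.346, edgeR) at 48 h, where 4.82% of genes were called, and by 0.23 (SE 0.30, adjusted p = 0.537, edgeR) at 24 h, where 14% were. X-33 differed from them by -0.63 (SE 0.61, adjusted p = 0.528, edgeR) at 48 h, beside 2.58% of genes called, and by 0.04 (SE 0.31, adjusted p = 0.960, edgeR) at 24 h, beside 1.28%. The last value was -0.92 without the high X-33 replicate C.

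The increase itself was compared between strains with interaction terms. For methanol over 24 h glycerol the 11 strains differed (adjusted p = 0.00727, edgeR), as did 89.9% of 5087 genes. Cluster 2 had the smaller increase, by -2.22 relative to the reference strains (SE 0.50, adjusted p = 1.00e-04, edgeR), with 16.8% of genes called in that direction. For methanol over 48 h glycerol the 10 strains were not called different (adjusted p = 0.0520, edgeR), where 67.2% of genes were. The Cluster 2 term there was -1.14 (SE 0.56, adjusted p = 0.0909, edgeR), where 18.3% of genes were called. The first of these passed with strain and replicate letter together as a block (adjusted p = 0.0362, edgeR), with DESeq2 (adjusted p = 0.0350) and with limma (adjusted p = 0.0234). Without the libraries under 1000000 counts they became 3.11e-05 (adjusted p, edgeR) and -1.56 (adjusted p = 0.00901, edgeR). The 48 h glycerol term uses Y-12729 and Y-48124 as references, since Y-48123 had 1 library there.

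The strains with the longer Rsf2p were compared with the other strains by an exact two-sided permutation test of strain means, 5 against 6. Mean log2(CPM + 1) in methanol was 13.35 in the former and 14.72 in the latter, a difference of -1.37 (exact permutation p = 0.102). At 48 h glycerol the difference was -0.57 (exact permutation p = 0.0541) and at 24 h glycerol -0.44 (exact permutation p = 0.0498). Adjusted over the 3 conditions the values were 0.102, 0.0812 and 0.0812, so no condition passed. Y-7556 and YB-4290 have identical genomes but entered as separate strains. With them averaged, the unadjusted exact permutation p became 0.167 in methanol, 0.0476 at 48 h glycerol and 0.129 at 24 h glycerol. The smallest p that the splits of 11 strains allowed was 0.00216. The strains without the longer form are also related. According to the study, Y-12729 and Y-48123 are nearly identical in genome to Y-11430, and Y-48124 and X-33 carry nearly all mutations of GS115. The test counts each strain as independent, so these p-values may overstate the replication. Y-17741, which carries the longer form, had the highest mean log2 level of all strains in methanol, while the other 4 carriers were among the lowest 5.

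Replicate libraries of a strain differed more in this gene than in most genes. The pooled SD within strains, on the log2(CPM + 1) scale, was 0.42 for the 24 h glycerol libraries, 0.97 for those of 48 h glycerol and 1.01 for those of methanol. The medians over all genes with a mean above 5 CPM were 0.26, 0.30 and 0.44, and the gene exceeded 88.0%, 99.6% and 96.4% of genes. In methanol, 8 of 11 strains had libraries more than 2 times apart, against 2 of 11 at 24 h glycerol and 4 of 10 at 48 h glycerol. The SD of the 11 strain means in methanol was 1.32, above that of 95.9% of genes. The 11 strain means took up 68.8% of the variance in methanol and 64.5% at 24 h glycerol, but 29.6% at 48 h glycerol. These shares are not adjusted for the number of means. Part of each arises without any strain difference, and a larger part where libraries are fewer, as at 48 h glycerol. The medians over genes were 60.7%, 74.5% and 67.4% in the same order, so the gene lay above the median only in methanol.

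Only GQ67_04060 (chromosome 3, 1836993 to 1838090, plus strand) had a higher mean TPM in methanol, at 17021 ± 8972 TPM (SD, n = 38) against 16250 ± 12493 TPM for GQ67_05214. No gene had a higher mean CPM. GQ67_04060 had the higher TPM in 27 of the 38 methanol libraries. The ratio of GQ67_05214 to it in TPM had a median of 0.88 and ran from 0.0937 in X-33 to 3.62 in Y-17741, whose 4 libraries all had a ratio of at least 1.46. In Y-11430 the ratio was nearly constant, from 0.914 to 1.07 in 7 libraries. The genes differed in glycerol. GQ67_04060 had already reached 5720 ± 1720 CPM (SD, n = 28) at 48 h glycerol, from 216 ± 187 CPM (SD, n = 36) at 24 h glycerol. In methanol it was also lower in Cluster 2 than in the reference strains, by -1.67 on the log2 scale (SE 0.21, adjusted p = 6.52e-08, edgeR).

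Genes were ranked by how closely they followed GQ67_05214, as the Pearson correlation of log2(CPM + 1). Over the 33 means of strain and condition, the 5 most alike of 4914 genes were GQ67_00550 (r = 0.97), GQ67_01153 (r = 0.96), GQ67_04975 (r = 0.96), GQ67_03053 (r = 0.96) and GQ67_00815 (r = 0.96), and 37 genes had an r above 0.9. The points share the step between glycerol and methanol, and over the methanol libraries alone the r of these genes was 0.50 to 0.83. All 5 were far less abundant, the largest methanol mean being 1329 CPM in GQ67_01153. Their increases over 48 h glycerol were also smaller, from 1.74 on the log2 scale in GQ67_03053 to 3.78 in GQ67_00815.

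Over the 38 methanol libraries alone, a different set was most alike, namely GQ67_00402 (r = 0.94), GQ67_00895 (r = 0.92), GQ67_03468 (r = 0.92), GQ67_03870 (r = 0.92) and GQ67_04104 (r = 0.92). None of these had a mean in methanol above that at 48 h glycerol. GQ67_00402 fell from 924 ± 138 CPM (SD, n = 28) at 48 h glycerol to 291 ± 130 CPM (SD, n = 38) in methanol, a log2 change of -1.81 (SE 0.07, adjusted p = 1.29e-36, edgeR). Within methanol it was nevertheless mostly higher where GQ67_05214 was high, with 380 to 486 CPM in Y-11430 and 112 to 125 CPM in YB-4290. In Y-17741, the strain with the highest mean log2 level of GQ67_05214, GQ67_00402 had 260 to 417 CPM. After strain means were removed the 5 correlations, pooled over all strains, were still 0.82 to 0.88. The genes had been picked by their r over these same libraries, and the pooled values need not hold within each strain. In Y-11430, replicates C and F were highest in GQ67_05214 (61668 and 58768 CPM) and lowest in GQ67_00402 (380 and 383 CPM). In the median gene the r over methanol libraries was 0.12. All these values describe libraries that share strains, and no p is attached to them.

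**Figure D4:**
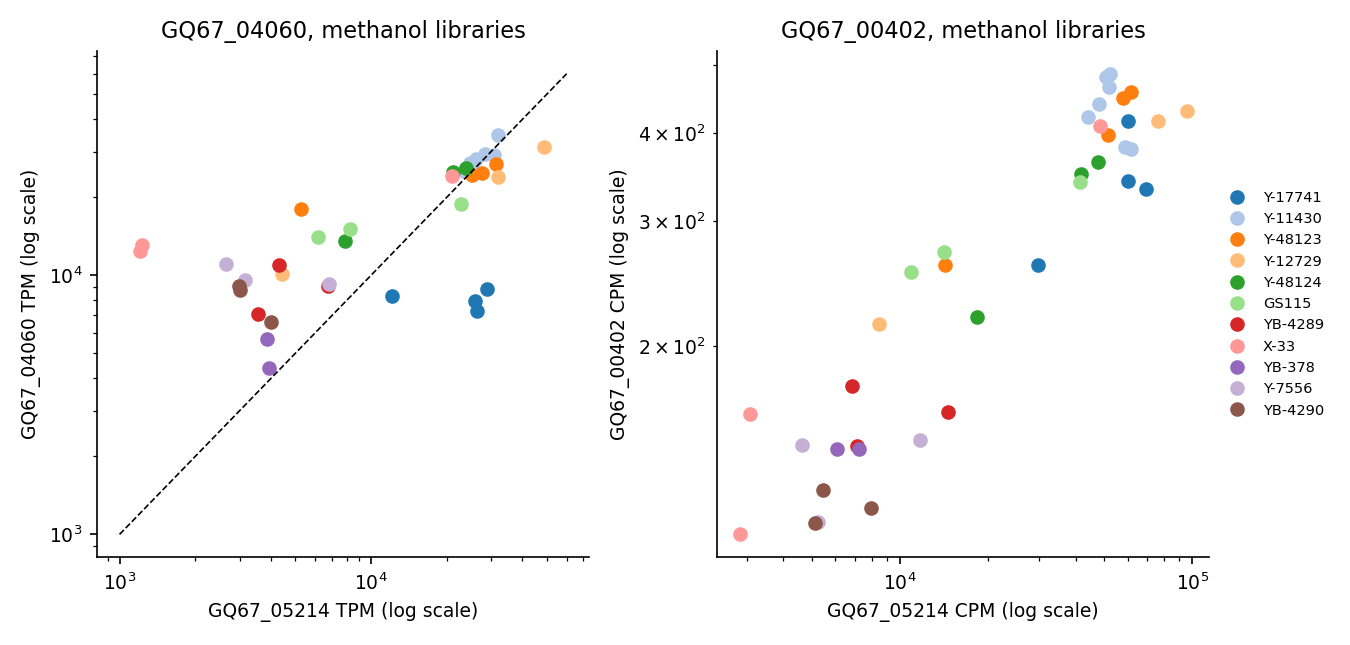
Methanol libraries, coloured by strain, on log axes. Left, GQ67_04060 against GQ67_05214 in TPM, with a dashed line where both are equal. Below it lie 11 libraries, among them all 4 of Y-17741. Right, GQ67_00402 against GQ67_05214 in CPM (r = 0.94, or 0.93 without libraries under 1000000 counts). The low and high libraries of X-33 lie along the same diagonal, but the high one, replicate C, has only 70901 counts in all.

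The genes on either side of GQ67_05214 stayed at low levels in every condition. The gene just past its 3′ end, GQ67_05213 (1582092 to 1583042, plus strand), ends 95 bases away and points toward it. It had 19.5 ± 3.54 CPM (SD, n = 36) at 24 h glycerol, 19.4 ± 5.22 CPM (SD, n = 28) after 48 h and 21.9 ± 6.06 CPM (SD, n = 38) with methanol. The edgeR difference between methanol and 48 h glycerol was 0.38 on the log2 scale (SE 0.07, adjusted p = 3.46e-06, edgeR), under the minimum of 1 for a call. On the 5′ side, GQ67_05215 (1586128 to 1587456, plus strand) starts 998 bases away and points in the opposite direction, so that this stretch lies upstream of both genes. It gave 87.1 ± 14.8, 46.7 ± 11.4 and 44.1 ± 20.7 CPM in the same order of conditions, and its difference between methanol and 48 h glycerol was 0.14 (SE 0.08, adjusted p = 0.121, edgeR). The sign of this estimate is opposite to that of the CPM means. The TMM scaling of the model places differences between methanol and 48 h glycerol higher than CPM does, by a median of 0.23 on the log2 scale over 5087 genes, and those between methanol and 24 h glycerol by 0.35.

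Of the 5 annotated genes on each side, 1 of 10 was called higher and 1 lower in methanol than at 48 h glycerol, where 14.4% and 12.2% of all genes were. Relative to 24 h glycerol, 1 was called higher and 2 lower, against 21.3% and 20.6% of all genes. GQ67_05216 (1587464 to 1589026, minus strand) rose by 1.53 on the log2 scale (SE 0.08, adjusted p = 1.52e-28, edgeR), from 76.7 ± 19.6 to 185 ± 70.6 CPM. GQ67_05212 (1580542 to 1581966, plus strand) changed by -1.58 (SE 0.08, adjusted p = 5.81e-31, edgeR), from 129 ± 23.1 to 39.3 ± 12.3 CPM. Between Cluster 2 and the reference strains in methanol, none of the 10 neighbours was called lower and 1 was called higher, where 13% and 9.18% of all genes were. GQ67_05217 (1590356 to 1591304, plus strand) was the one called, by 1.35 (SE 0.18, adjusted p = 1.76e-07, edgeR).

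**Figure D5:**
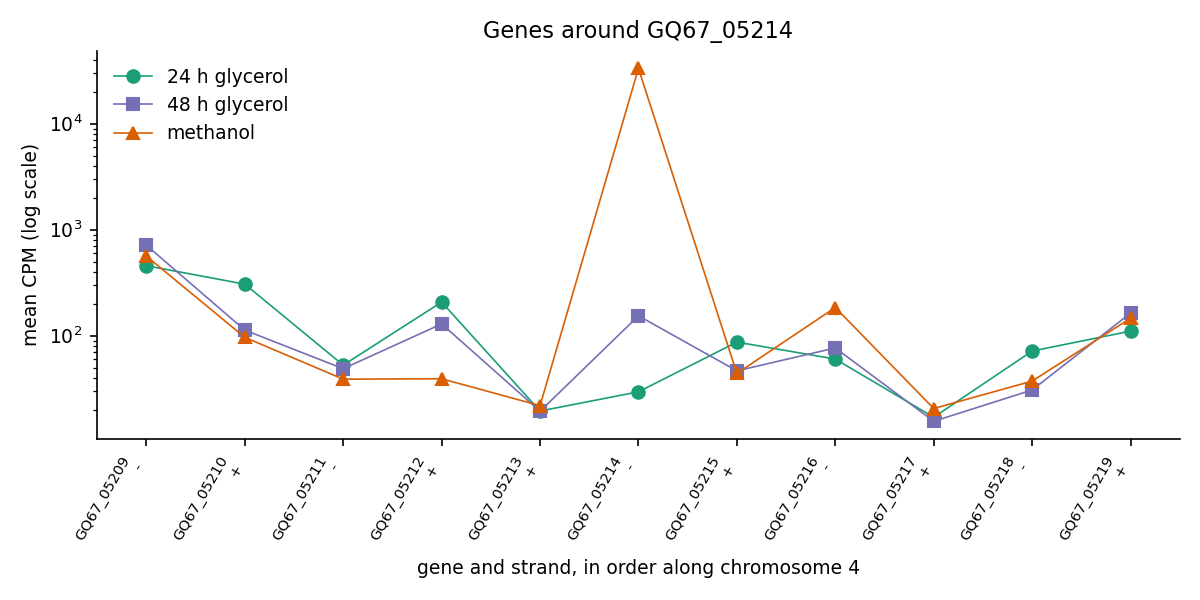
Mean CPM on a log axis of GQ67_05214 and of the 5 annotated genes on each side of it, in their order along chromosome 4 with the strand under each name. Symbols are means over the 36, 28 and 38 libraries of a condition. In methanol the gene stands at 33218 CPM between neighbours of 21.9 and 44.1 CPM.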

How the data were processed

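RNA-seq libraries (KAPA HyperPrep) of 11 strains were aligned by the authors with STAR 2.5.3a and quantified with RSEM 1.3.0, per the labels and the study's methods. The deposited expected counts are estimated read numbers per gene, whole numbers without normalization. The deposited log2 values are log2(TPM + 1), and the authors' annotation gave coordinates. The sources used here do not state whether counting used strand.

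CPM were computed on library totals, which sum the listed genes only. Models used edgeR 4.0.16 in R 4.3.3 on all genes passing filterByExpr, with TMM, robust quasi-likelihood F tests and Benjamini-Hochberg adjustment. Within a condition, the model had a mean per strain, and across conditions a mean per strain and condition. Alternatives were RLE size factors, no filter, DESeq2 1.42.0, limma 3.58.1 on the deposited log2 values, a replicate block, omission of libraries under 1000000 counts and of each library in turn. The replicate block was the letter within a condition, and strain and letter together across conditions. Alternatives for the interaction over 24 h glycerol, both Cluster 2 interactions and some for the fold changes were added after seeing the data.

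Named genes were the 5 most alike over 33 group means, the 5 most alike over 38 methanol libraries, 5 neighbours on each side, and genes of higher mean TPM in methanol. The gene, comparisons and lists were chosen with earlier results of these data known.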

Additional observations from a re-analysis of the deposited data

Results flagged for a closer look

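The increase of GQ67_05214 in methanol over 24 h glycerol differed between the 11 strains by a test of the difference itself (adjusted p = 0.00727, edgeR interaction term). Of 5087 genes, 89.9% passed this test. In the same model the increase in the 4 Cluster 2 strains was smaller than in the reference strains by -2.22 on the log2 scale (SE 0.50, adjusted p = 1.00e-04, edgeR), with 16.8% of genes called in that direction. The matching terms over 48 h glycerol were not called in that model (adjusted p = 0.0520 and 0.0909, edgeR). The per-strain increases were 8.34 to 9.46 in Cluster 2 and 10.58 to 11.66 in the reference strains, with SEs of 0.88 to 0.98. Of the strains in neither group, X-33 lay at 9.43, GS115 at 9.71, Y-11430 at 10.20 and Y-17741 at 11.28. The groups had been formed from these libraries.

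In 2 groups of 4 methanol libraries, replicate C lay far below the others on the log2(CPM + 1) scale by Dixon's test. In Y-48123 its gap to the next library was 0.880 of the group's range, and in Y-17741 it was 0.831, just over the limit. On the CPM scale the gaps were 0.790 and 0.766 of the range and neither passed, so these results depend on the scale, and the log2 scale was added after seeing the data. The test was made in 4 groups of 4 to 7 libraries, and chance alone passes about 1 in 20 groups.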

How the results depend on the processing

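Leaving single libraries aside, 25 results with a test were recomputed under other settings, and 129 of 144 values kept their direction and their side of the threshold. Of 297 fold changes per strain, 24 moved by more than the spread between replicates, all in X-33, Y-12729 and Y-17741. The 18 called pairs became 14 to 25. With limma on log2(TPM + 1), Cluster 2 against the reference strains at 48 h glycerol became -0.73 and Y-11430 at 24 h glycerol 0.90, both no longer called, and X-33 in methanol became -2.49, now called. Small uncalled differences changed sign there, to 0.0153 for Y-11430 at 48 h glycerol, -0.0414 for Y-17741 and -0.0289 for GS115 at 24 h glycerol. DESeq2 called X-33 in methanol (-1.44). The interaction over 48 h glycerol passed with DESeq2 (0.0350), limma (0.0234) and the block of strain and replicate letter (0.0362). Without the libraries under 1000000 counts it was 3.11e-05, X-33 in methanol was -3.64, the Cluster 2 interaction over 48 h glycerol was -1.56, and Cluster 2 at 48 h glycerol was -0.93 and not called. The cause of these changes was not tested.

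With the replicate letter as a block, Cluster 2 at 48 h glycerol was -0.88 and not called. Same-lettered libraries of a strain in different conditions did not deviate together (mean r of -0.07 between the glycerol conditions, with 2 of 24 pairs above 0.1, and 5 of 35 and 5 of 24 pairs above 0.1 between methanol and 24 h and 48 h glycerol). Within a condition, same-lettered libraries of different strains exceeded 0.1 in 56 of 165 pairs at 24 h glycerol, 25 of 84 at 48 h glycerol and 58 of 158 in methanol, against 79 of 420, 61 of 243 and 129 of 490 for unlike letters. The labels do not say whether a letter marks a shared batch, which was not tested further.

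When each library was left out in turn, the ranges were -0.0602 to 0.32 for Y-11430, -2.24 to -0.87 for GS115 and -3.64 to -1.01 for X-33 against the reference strains in methanol. At 48 h glycerol they were 0.0150 to 0.484 for the strain test, -1.42 to -0.93 for Cluster 2 and -2.54 to 0.33 for Y-17741. At 24 h glycerol they were 0.91 to 1.19 for Y-11430 and -0.92 to 0.40 for X-33. The interaction over 48 h glycerol gave 8.15e-04 to 0.142 and its Cluster 2 term -1.63 to -0.83. The mean fold changes moved by less than the spread between replicates in every case. With 1 to 3 libraries in most groups, strain contrasts had wide errors at 48 h glycerol and in methanol (within-strain SD 0.97 and 1.01) and smaller ones at 24 h glycerol (0.42).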
